A study of Mus musculus with 8 samples.

Results

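The genes described here encode the transporters that load glutamate into synaptic vesicles (Slc17a6, Slc17a7 and Slc17a8) and those that take it up again across the plasma membrane (Slc1a1, Slc1a2, Slc1a3 and Slc1a7). They are 7 of the 17500 genes in a count table from mouse retinas, were found in it by gene symbol, and all 7 were among the 16797 genes kept by the filter on low counts. Poly(A)-selected RNA of whole retinas was sequenced for 4 control mice, called M833, M894, M896 and M898, and for 4 Rbfox2-/- mice, called M893, M901, M902 and M909, each giving 1 library. All mice were 6 months old and on a C57BL/6J background. Rbfox2-/- mice, labelled Rbfox2 KD, were Rbfox2 fl/fl, with LoxP sites around coding exons of the gene for the splicing regulator Rbfox2, and carried a tamoxifen-dependent Cre. This Cre was not limited to any retinal cell type. The study chose it for strong reporter expression in ganglion cells, amacrine cells and, most probably, horizontal cells of the retina. It reported Rbfox2 staining only in these retinal cell types. Control mice were heterozygous Rbfox2 fl/+, and whether they carried Cre is not given in the sources used here. The sample labels give 4 months for tamoxifen in both groups. The study instead describes a short course by gavage on consecutive days in adult Rbfox2-/- mice, with retinas taken 4 months later.

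Glutamate is the transmitter of photoreceptors, bipolar cells and retinal ganglion cells (RGCs). Vesicular transporters use the proton gradient made by the vacuolar ATPase to fill vesicles, and the genes differ in the cells that use them. Slc17a7 (vGLUT1) serves the ribbon synapses of rods, cones and bipolar cells. Slc17a6 (vGLUT2) serves RGC axons, and Slc17a8 (vGLUT3) is known from a class of amacrine cells (ACs) with few members. The study that reported these retinas also described vGLUT3 staining in many RGCs. Plasma membrane transporters use the sodium gradient kept by the sodium-potassium ATPase. GLAST (Slc1a3) clears glutamate into Müller glia, where glutamine synthetase turns it into glutamine that returns to neurons, while GLT-1 (Slc1a2), EAAC1 (Slc1a1) and EAAT5 (Slc1a7) act mostly in neurons of the retina.

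Rbfox proteins bind GCAUG elements in RNA, which read GCATG in the DNA letters of the annotation. The 3′ untranslated regions (UTRs) of the longest annotated protein-coding transcript of each gene were searched for GCATG on the transcript strand. The windows of Slc1a7 and Slc1a1 are shown because these were the transporter genes with an unadjusted p under 0.05. Each window has 30 bases and is read 5′ to 3′ on the plus strand of GRCm38, with the element in capitals. Those of Slc1a7 lie at chr4:108012963-108012992 and chr4:108013169-108013198, and that of Slc1a1 at chr19:28912846-28912875.
Slc1a7, first element: ccccaccccacaGCATGtgtgttggttttt
Slc1a7, second element: ctccagcccacaGCATGtggttttaactca
Slc1a1: ggctccctgcgaGCATGgaataagtacatt

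Over the transporter genes, 14 GCATG elements were found, and none was preceded by T to give TGCATG, the longer form of the element. Slc1a2 held 7 elements in a 3′ UTR of 9250 bases, Slc17a8 held 3 in 2296 bases, and Slc1a3 held 1 in 2008 bases. Slc1a7 had 2 in 1083 bases, and Slc1a1 had 1 in 2060 bases. No GCATG was present in the 3′ UTRs of Slc17a6 (1759 bases) and Slc17a7 (1098 bases). Of the 14840 tested genes with such a 3′ UTR, 59.2% held GCATG and 35.2% held TGCATG. Among 3′ UTRs within 20% of the length of that of Slc1a7, 26.4% held at least as many elements. The same share was 84.1% for Slc1a1, 71.1% for Slc1a2, 83.4% for Slc1a3 and 38.7% for Slc17a8. These counts describe the letters in these windows and no binding was measured.

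The targeted gene matched the labels in every library. Rbfox2 had 53.9, 58.9, 53.6 and 59.4 CPM (counts scaled to a common, TMM-normalized library size) in M893, M901, M902 and M909, against 143.8, 149.8, 157 and 148 CPM in M833, M894, M896 and M898. Rbfox2 fell to 37.7% of the control level (edgeR quasi-likelihood test, adjusted p = 5.51e-07). The lowest and highest total counts were 160630226 and 211283591, and 3 counts corresponded to at most 0.0189 CPM, which covers counting error only. The first principal component (40.5% of the variance) separated M901 and M902 from the other libraries. Those libraries also had 1440 and 1739 CPM of Xist, the RNA that coats the inactive X chromosome, against 1.71 to 2.22 CPM elsewhere. The 4 Y-linked genes Ddx3y, Uty, Kdm5d and Eif2s3y had 0.0674 to 0.316 CPM in M901 and M902 and 24.2 to 69.5 CPM in the other 6 libraries. The libraries with the female pattern were thus both Rbfox2-/-, and no control had it. What else separates M901 and M902 cannot be told apart from sex. Rod marker genes summed to between 61966 and 69893 CPM in each library of this whole-retina series.

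Per kilobase of annotated exons, vGLUT1 was by far the most abundant transporter transcript. Slc17a7 had 849 ± 31.9 CPM per kilobase (SD, n = 8 libraries), and no library fell below 806. Slc1a3 (48.4 ± 2.04), Slc1a7 (48.2 ± 3.67) and Slc1a2 (45.5 ± 4.18 CPM per kilobase) followed, and these neighbours did not differ beyond their spread between libraries. Slc17a6 had 16.0 ± 2.45 and Slc1a1 13.5 ± 0.545 CPM per kilobase, and their order was the opposite in M833, where Slc17a6 had 11.0 and Slc1a1 13.6. Slc17a8 had the lowest level, 4.42 ± 0.549 CPM per kilobase, and in such bulk samples fewer cells of a type and less RNA per cell cannot be told apart. The order was the same in the deposited FPKM values, which ran from 863 for Slc17a7 to 4.68 for Slc17a8.

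**Figure D1:**
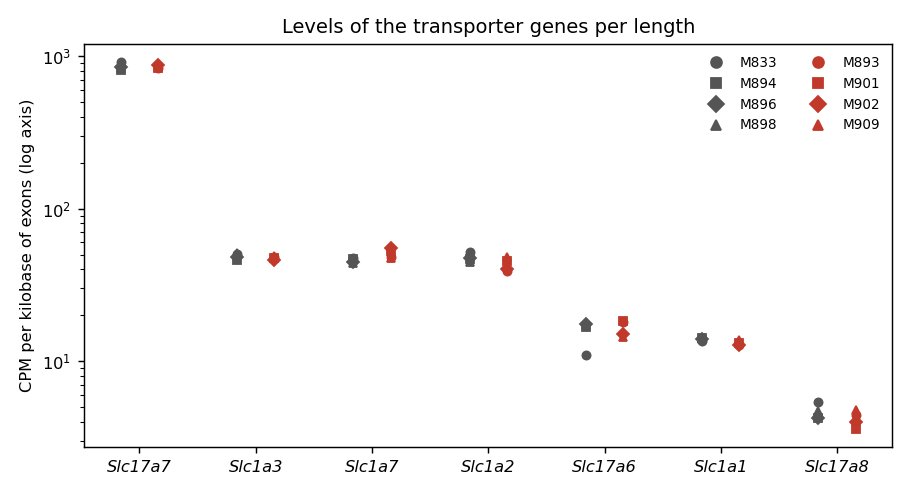
Levels of the 7 transporter genes in CPM per kilobase of exons on a log axis, 1 point per mouse, with controls in grey on the left and Rbfox2-/- mice in red on the right of each gene. Slc17a7 sits near 849, a group of Slc1a3, Slc1a7 and Slc1a2 between 39.0 and 54.8, and Slc17a8 near 4.42.

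The makeup of the vesicular transcripts was alike in both groups. Slc17a7 made up 97.6% ± 0.389 of the per-kilobase sum of the vesicular transporters in controls and 97.6% ± 0.235 in Rbfox2-/- retinas (SD, n = 4 each). The vesicular sum was 5.55 ± 0.121 times the plasma membrane sum in controls and 5.63 ± 0.205 times in Rbfox2-/- retinas, and the groups overlapped. Within the plasma membrane transporters the share of Slc1a7 was 29.2% ± 0.735 in controls and 32.8% ± 2.38 in Rbfox2-/- retinas. For Slc1a2 the shares were 30.5% ± 1.01 and 27.9% ± 2.06. These shares also overlapped between the groups, from 28.5% to 30.3% against 29.9% to 35.7% for Slc1a7, and no test was run on them.

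No transporter gene passed an adjusted p of 0.05, whether by edgeR, DESeq2 or limma-voom. Of all genes tested 11 did by edgeR, or 0.0655%, with 0.0357% higher and 0.0298% lower in Rbfox2-/- retinas. An unadjusted p under 0.05 was found for 2 of the 7, Slc1a7 (higher in Rbfox2-/- retinas) and Slc1a1 (lower), against 13.3% of all genes tested (6.42% higher and 6.87% lower). Unadjusted p-values under 0.01 were found for 0 of the 7 and for 3.88% of all genes. The groups overlapped in each of the 7, whereas they did not overlap in 7.03% of all genes (3.64% higher and 3.39% lower). The median log2 fold change of the transporter genes was -0.040, beside 0.0016 over all genes, with 3 positive and 4 negative values. Estimated changes ran from 0.0037 to 0.15 in size, and the widest 95% interval, that of Slc17a6, reached from -0.25 to 0.38.

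**Figure D2:**
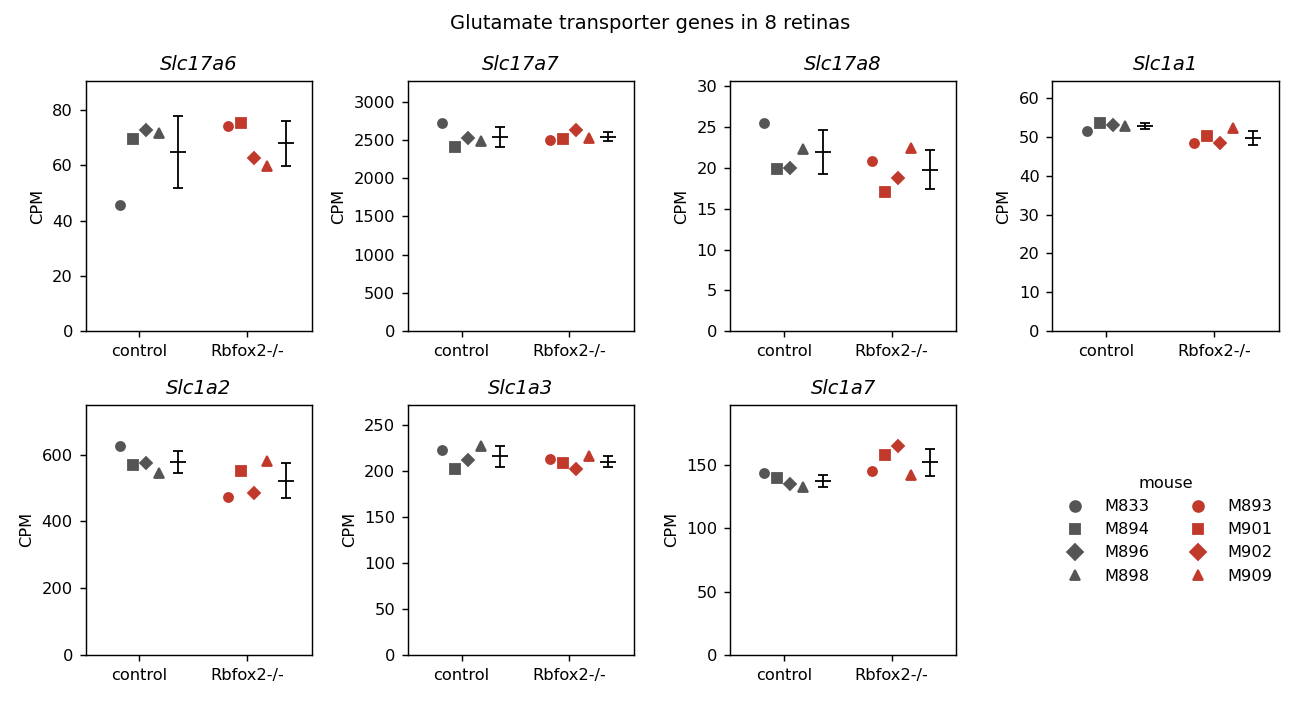
CPM of each transporter gene in each mouse, with a linear axis from 0 in every panel, the mean marked by a bar and the SD by whiskers (n = 4 per group). Groups overlap in all 7 panels, Slc17a6 is low in the control M833 (45.5 CPM), and Slc1a7 is highest in M902 (165 CPM) and M901 (158 CPM).

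Slc17a7 lies on chromosome 7 (45163949 to 45176142, plus strand, GRCm38). Control retinas had 2724, 2409, 2525 and 2485 CPM in M833, M894, M896 and M898, and Rbfox2-/- retinas had 2498, 2516, 2625 and 2531 CPM in M893, M901, M902 and M909. All Rbfox2-/- libraries lay within the control range. Its log2 fold change was 0.0037 (SE 0.048, 95% interval -0.10 to 0.11), so that a level between 93.1% and 108% of control was compatible with the data (edgeR adjusted p = 0.984). Per 100 CPM of summed rod markers, Slc17a7 had 3.99 ± 0.104 CPM in controls and 3.76 ± 0.0935 in Rbfox2-/- retinas. The ranges were 3.8844 to 4.09 and 3.66 to 3.8840, so that the groups narrowly did not overlap. No test was run on this ratio. The rod marker sum itself ran from 64304 to 69893 CPM in Rbfox2-/- retinas against 61966 to 66660 CPM in controls. Part of that sum are Gnat1, the rod transducin, with a log2 fold change of 0.19 (adjusted p = 0.236), and Pde6b, a rod phosphodiesterase subunit, with 0.13 (adjusted p = 0.257). Of the 8 rod markers, 7 had positive log2 fold changes, and 3 were higher at an unadjusted p under 0.05 (6.42% of all genes). The groups did not overlap in 2, Gnat1 and Pde6b (3.64% of all genes were higher without overlap). Whether the rod markers play a part in the Slc17a7 values was not tested.

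Slc17a6 (chromosome 7, 51622006 to 51671119, plus strand) varied most among the transporter genes. Its CPM values were 45.5, 69.4, 72.8 and 71.5 in M833, M894, M896 and M898 (control), and 74.2, 75.4, 62.5 and 59.6 in M893, M901, M902 and M909. M833 stood below every other library, the remaining controls were close together, and the groups overlapped. A log2 fold change of 0.07 was estimated (SE 0.14, adjusted p = 0.875), which leaves levels from 84.3% to 130.4% of control within the 95% interval. Without M833 the log2 fold change turned to -0.071.

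RGC markers moved with Slc17a6 across the libraries. The summed level of 12 RGC marker genes, among them Rbpms, Pou4f1 and the neurofilament genes, was 891 CPM in M833 and between 1356 and 1405 CPM in the other controls. In Rbfox2-/- retinas the sum was 1373, 1438, 1261 and 1089 CPM in M893, M901, M902 and M909. All 12 markers had their lowest value in M833, which was the lowest library for 1848 of the 16797 genes tested. Per 100 CPM of the marker sum, Slc17a6 had 5.14 ± 0.0779 CPM in controls and 5.27 ± 0.229 CPM in Rbfox2-/- retinas. The highest library exceeded the lowest 1.66-fold for Slc17a6 itself and 1.10-fold for this ratio. No RGC marker passed the edgeR test between groups, with 0 of 12 at an unadjusted p under 0.05 (13.3% of all genes). Their median log2 fold change was 0.040. The lowest p values in this list were those of Pou4f3, an RGC transcription factor (log2 fold change 0.18, adjusted p = 0.731), and Nefh, the heavy neurofilament (-0.10, adjusted p = 0.782).

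**Figure D3:**
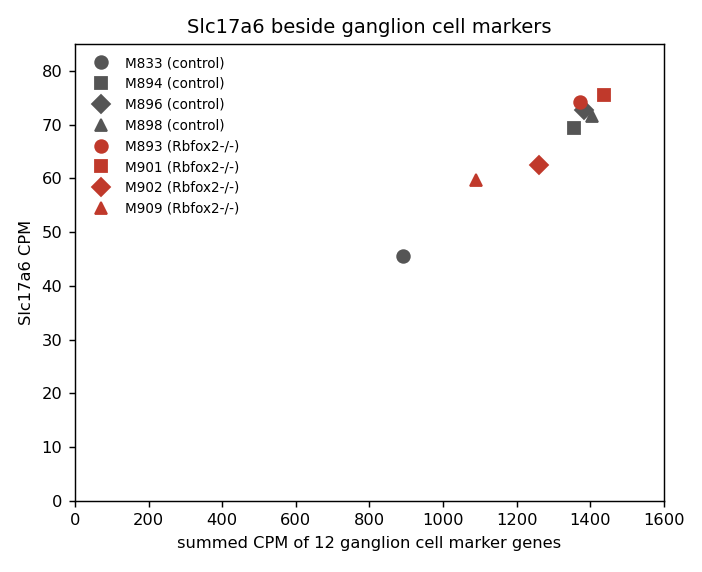
Slc17a6 CPM against the summed CPM of 12 RGC marker genes in each mouse (grey, control; red, Rbfox2-/-; both axes from 0). M833 has the lowest value on both axes (891 and 45.5 CPM), M909 and M902 follow, and the other libraries lie together between 1356 and 1438 CPM of marker sum.

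Slc17a8 is located on chromosome 10 (89574020 to 89621253, minus strand). Controls had 25.5, 19.9, 19.9 and 22.3 CPM and Rbfox2-/- retinas 20.9, 17.0, 18.8 and 22.4 CPM, in the mouse order given above. M901 and M902 were the lowest libraries and M833 the highest. Slc17a8 had a log2 fold change of -0.15 (SE 0.10, 95% interval -0.37 to 0.079, adjusted p = 0.565). It was -0.019 without M901 and M902, and 0.060 when M833 was left out too, so that the direction rested on these libraries. Of 10 AC markers, 1 had an unadjusted p under 0.05 (13.3% of all genes). This was Th, the rate-limiting enzyme of dopamine synthesis (log2 fold change 0.46, adjusted p = 0.182), while Slc6a9, the glycine transporter of glycinergic ACs, had -0.079 (adjusted p = 0.383).

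Slc1a3, the main uptake carrier of Müller glia, is annotated on chromosome 15 (8634124 to 8710764, minus strand). Its level was 223, 202, 212 and 227 CPM in M833, M894, M896 and M898, and 213, 208, 203 and 217 CPM in M893, M901, M902 and M909. Every Rbfox2-/- library was within the control range. The log2 fold change of -0.040 (SE 0.043, adjusted p = 0.731) corresponds to 97.3% of control, with a 95% interval from 91.0% to 104%, and was -0.0098 without M901 and M902. Summed Müller markers varied more, 2452 to 2945 CPM in controls and 2130 to 2648 CPM in Rbfox2-/- retinas, with the lowest sums in M902 and M901. Per 100 CPM of that sum, Slc1a3 had 8.27 ± 0.649 CPM in controls and 8.85 ± 0.711 CPM in Rbfox2-/- retinas. Of the 8 Müller markers, 5 had negative and 3 positive log2 fold changes. At an unadjusted p under 0.05 by edgeR, 2 were lower (6.87% of all genes), and 1 was lower without overlap (3.39% of all genes). These were Car14, a membrane carbonic anhydrase, with a log2 fold change of -0.44 (adjusted p = 0.0862, groups not overlapping), and Clu, the secreted chaperone clusterin, with -0.24 (adjusted p = 0.363).

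For Slc1a2 (chromosome 2, 102658659 to 102790784, plus strand) control values were 625, 569, 574 and 544 CPM. The Rbfox2-/- libraries M893, M901, M902 and M909 had 472, 551, 485 and 581 CPM. M893 and M902 lay below all controls, and M901 and M909 were within the control range. The log2 fold change was -0.15 (SE 0.072, 95% interval -0.31 to 0.014, adjusted p = 0.411), with p = 0.2 in the exact two-sided permutation test over the 70 groupings of the mice. It kept its direction under every alternative tried, from -0.20 without M909 to -0.10 when M833, M901 and M902 were left out. In bipolar cells, which carry part of the retinal Slc1a2, 3 of 8 markers had an unadjusted p under 0.05, all lower in Rbfox2-/- retinas, where 6.87% of all genes were lower at that threshold. Of the 8, 2 had positive log2 fold changes, among them Grm6, the glutamate receptor of ON bipolar cells (0.19, adjusted p = 0.426), named after its values were seen. The lowest p values were those of Pcp2 (log2 fold change -0.18, adjusted p = 0.149) and Cabp5, a calcium-binding protein (-0.14, adjusted p = 0.239), and the marker sum was 1575 to 1650 CPM against 1633 to 1751 CPM in controls.

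Slc1a1 (chromosome 19, 28835049 to 28913960, plus strand) varied little between mice. Controls had 51.5, 53.6, 53.1 and 52.9 CPM, and Rbfox2-/- retinas 48.5, 50.1, 48.3 and 52.2 CPM. M893, M901 and M902 were below all controls, and M909 was above M833. The log2 fold change was -0.084 (SE 0.037), 94.3% of control, with an unadjusted p of 0.0483 and an adjusted p of 0.373 in the edgeR fit, and p = 0.0571 in the exact permutation test, whose smallest possible value is 0.0286. The unadjusted p was under 0.05 in 6 of 17 alternative settings. Of its 3800 exon bases, 1216 are shared with exons of a gene on the opposite strand, 4430402I18Rik. That gene had 1.41 to 1.94 CPM in Rbfox2-/- retinas and 1.45 to 1.83 CPM in controls. Whether the counting used strand is not given in the sources used here, so reads in the shared part are uncertain.

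Slc1a7, a carrier with a large chloride conductance at photoreceptor and bipolar terminals, showed the lowest p of the transporter genes. It is annotated on chromosome 4 (107968332 to 108013532, plus strand). The controls M833, M894, M896 and M898 had 143, 139.6, 135 and 132 CPM, and M893, M901, M902 and M909 had 145, 158, 165 and 142 CPM. M893, M901 and M902 were above all controls, while M909 was below M833. The log2 fold change was 0.15 (SE 0.050, 95% interval 0.035 to 0.26), 111% of control, with an unadjusted p of 0.0151 and an adjusted p of 0.276 by edgeR, and p = 0.0571 in the exact permutation test. Without M901 and M902 it was 0.059 (unadjusted p = 0.238 by edgeR), and with 1 surrogate variable in the model it was 0.047. The unadjusted p was under 0.05 in 13 of 17 alternative settings, and was 0.0518 when M902 alone was left out. Per 100 CPM of summed rod markers, Slc1a7 had 0.217 ± 0.0067 CPM in controls and 0.225 ± 0.0113 CPM in Rbfox2-/- retinas, and the groups overlapped. Cone marker sums were 999 to 1006 CPM in controls and 1074 to 1207 CPM in Rbfox2-/- retinas, highest in M902. Of 9 cone markers, 4 were higher and 1 lower at an unadjusted p under 0.05 (6.42% and 6.87% of all genes). The lowest p values were those of Gngt2, a transducin gamma subunit (log2 fold change 0.26, adjusted p = 0.0568, groups not overlapping), and Opn1sw, the short-wavelength opsin (0.26, adjusted p = 0.192, and 0.17 without M901 and M902). The lower one was Opn1mw, the middle-wavelength opsin (-0.23, adjusted p = 0.353), named after its values were seen. The part of these photoreceptor markers in the Slc1a7 values was not tested.

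**Figure D4:**
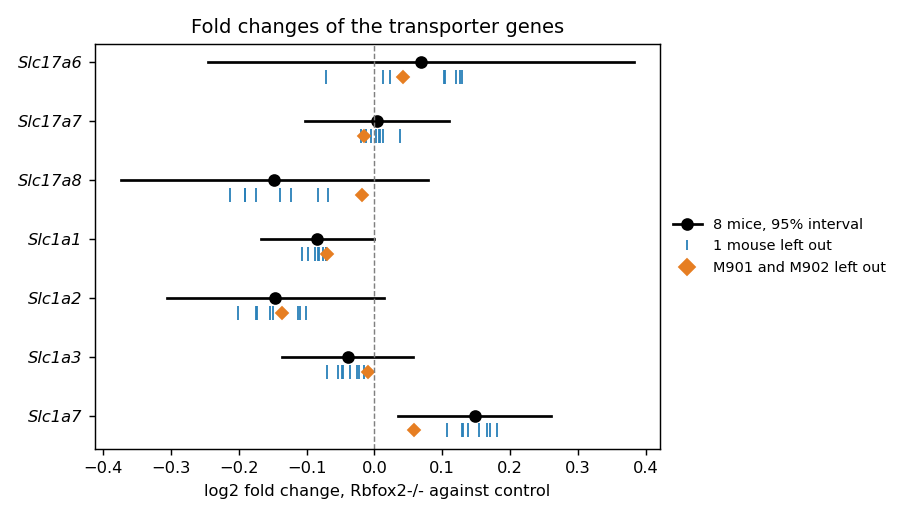
Log2 fold change of each transporter gene (Rbfox2-/- against control, black points) with its 95% interval from edgeR, the values when 1 mouse was left out (blue ticks) and when M901 and M902 were left out (orange diamonds). Only the intervals of Slc1a1 and Slc1a7 exclude 0, and the Slc1a7 value moves from 0.15 to 0.059 without M901 and M902.

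The levels of each transporter gene were also compared with those of 13755 genes of at least 1 CPM over the 8 libraries, and the most alike are given by the Pearson r of log2 CPM, as a description. Rgs4, a regulator of G-protein signaling, was most like Slc17a6 (r = 0.993), followed by Stbd1 (0.989). For Slc17a7 these were Selt (0.986) and Tmem30a (0.977), and for Slc17a8 Hadhb (0.955) and Ube2g1 (0.944). Slc1a1 was most like Aloxe3 (0.990) and Zfp280c (0.964), and Slc1a2 was most like Tet1 (0.982) and Fbxl17 (0.973). Tiam2 (0.928) and Vwa5a (0.924) came closest to Slc1a3, and Dnmt3b (0.990) and Ttll5 (0.988) to Slc1a7. With 8 libraries such values are common, and 157 genes had an r over 0.9 with Slc17a6 and 154 with Slc1a7, but 7 each with Slc17a8 and Slc1a3.

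The 5 other carriers of the same families had group means from 0.558 CPM (Slc17a9) to 17.3 CPM (Slc1a4) and passed no adjusted threshold. Slc1a6, the EAAT4 carrier, had 4.84, 4.90, 5.53 and 5.02 CPM in controls and 3.91 to 4.76 CPM in Rbfox2-/- retinas, without overlap (log2 fold change -0.22, adjusted p = 0.333). Slc17a5, the lysosomal sialic acid carrier sialin, had a log2 fold change of 0.14 (adjusted p = 0.361) with overlapping groups. The remaining 3 genes of this list had unadjusted p-values over 0.05.

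Among genes of glutamate and glutamine metabolism, transport and exchange, Glul and Slc7a11 were lower in every Rbfox2-/- library than in any control. Over 21 genes the summed level was 6042 to 6276 CPM in controls and 5807 to 5873 CPM in Rbfox2-/- retinas, and the sums were not tested. Without Glul the other 20 genes summed to 2700 to 2833 CPM in controls and 2771 to 2900 CPM in Rbfox2-/- retinas, so that the lower total came from Glul. None passed an adjusted p of 0.05 with edgeR or limma-voom. With DESeq2 2 did, beside 465 of the 16797 genes tested. At an unadjusted p under 0.05 by edgeR, 1 was higher and 3 lower (6.42% and 6.87% of all genes). In 3 the groups did not overlap (7.03% of all genes). The median log2 fold change was 0.021, with 13 positive values.

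Glul, the glutamine synthetase of Müller glia, had 3214, 3245, 3513 and 3565 CPM in M833, M894, M896 and M898 and 2946, 2973, 3003 and 3083 CPM in M893, M901, M902 and M909. All Rbfox2-/- libraries were below all controls. The log2 fold change was -0.17 (SE 0.048, adjusted p = 0.221 by edgeR and 0.0107 by DESeq2). Slc7a11, the cystine/glutamate exchanger that releases glutamate in return for cystine, had 14.7, 14.1, 11.7 and 18.4 CPM in controls and 9.37, 6.44, 5.30 and 10.7 CPM in Rbfox2-/- retinas, again without overlap. Its log2 fold change was -0.89 (SE 0.21, adjusted p = 0.176 by edgeR and 0.0318 by DESeq2), and -0.56 without M901 and M902. The following carriers were named after their values were seen. Slc3a2, the heavy chain that carries this exchanger to the membrane, had a log2 fold change of -0.17 (adjusted p = 0.233) and overlapping groups, 116 to 124.8 CPM against 123 to 144 CPM. Slc38a3, a glutamine carrier of glia, had a log2 fold change of 0.12 (adjusted p = 0.342), with 642 to 691 CPM against 586 to 667 CPM in controls.

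**Figure D5:**
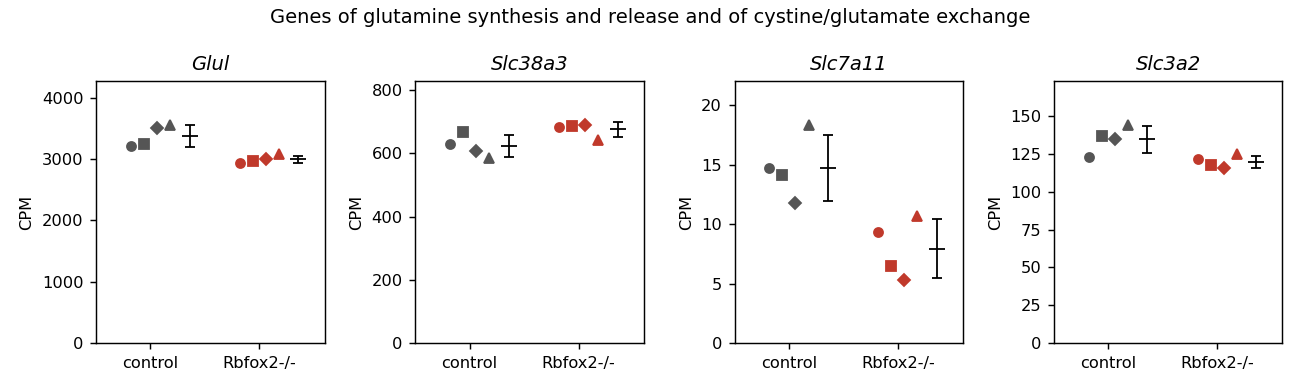
CPM of Glul, Slc38a3, Slc7a11 and Slc3a2 in each mouse (grey, control; red, Rbfox2-/-; axes from 0, mean with SD, n = 4 per group, symbols as in the plot of the transporter genes). All Rbfox2-/- points lie below all control points for Glul and Slc7a11, whereas the groups overlap for Slc38a3 and Slc3a2.

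Pumps that drive the transporters differed little between the groups. Of 17 subunits of the vacuolar ATPase, 1 had an unadjusted p under 0.05 (13.3% of all genes). This was Atp6v0b, a subunit of the proton-carrying ring, with 154.3, 153.5, 143.6 and 144.7 CPM in controls and 168, 162.5, 166 and 154.5 CPM in Rbfox2-/- retinas (log2 fold change 0.13, adjusted p = 0.243). Atp6v0e, the next by p, had a log2 fold change of -0.20 (adjusted p = 0.391), and -0.081 without M901 and M902. The median of this list was 0.015. None of 7 sodium-potassium ATPase genes had an unadjusted p under 0.05 (13.3% of all genes). Among them Atp1b2, a beta subunit, had a log2 fold change of 0.074 (adjusted p = 0.570), and 0.037 without M901 and M902. It had the only positive value, and the other 6 were negative.

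The other marker lists give the cellular background of these values. Calb1, calbindin of horizontal cells and some ACs and RGCs, was the only one of 145 genes on the lists to pass the adjusted threshold by edgeR and by limma-voom. By DESeq2 12 of them passed, beside 465 of the 16797 genes tested, and none was a transporter gene. These were 3 rod and 2 cone markers, Glul and Slc7a11, and 1 each from the Müller, bipolar, AC, horizontal cell and sex gene lists. Calb1 fell from 76.2 ± 1.84 CPM in controls to 57.9 ± 1.86 CPM in Rbfox2-/- retinas (log2 fold change -0.40, adjusted p = 0.00341 by edgeR). Summed horizontal cell markers were 81.6 to 85.8 CPM against 99.7 to 106 CPM. Without Calb1 the other 4 markers summed to 24.4 to 26.7 CPM against 24.0 to 28.2 CPM. Of the 5 horizontal cell markers, 3 were lower in Rbfox2-/- retinas and 2 higher. In 2 of the lower ones, Calb1 among them, the groups did not overlap (3.39% of all genes). The 2 higher ones were Ptf1a and Lhx1. Ptf1a, the second gene of that list by p, had a log2 fold change of 1.01 (adjusted p = 0.342) at 0.0577 to 0.265 CPM. Lhx1, named after its values were seen, had 0.18 (adjusted p = 0.353). Astrocyte markers had S100b at -0.27 (adjusted p = 0.409) and Pax2 at -0.21 (adjusted p = 0.627) on the log2 scale, whereas Gfap, the third of the list, had 0.15 (adjusted p = 0.669). For pigment and ciliary epithelium, sums ran from 60.0 to 159 CPM in Rbfox2-/- and from 82.0 to 179 CPM in control retinas, with Pmel at -2.13 (adjusted p = 0.338) and Best2 at -2.02 (adjusted p = 0.369). Lens crystallins summed to between 33.7 and 49.5 CPM, with Cryab at -0.18 (adjusted p = 0.407) and Cryaa at 0.66 (adjusted p = 0.781). Genes of blood vessels and microglia summed to between 39.5 and 58.3 CPM, with Pecam1 at -0.25 (adjusted p = 0.359) and Cdh5 at -0.36 (adjusted p = 0.404). Of these 6 genes, 5 had negative values and 1 a positive value. Only 1 was lower at an unadjusted p under 0.05 by edgeR (6.87% of all genes), and the groups overlapped in all 6. The part of these cells in the transporter values was not tested.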

How the data were processed

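Retinas of 4 Rbfox2-/- and 4 control mice were grouped by their sample titles. The authors aligned reads to mm10 with STAR, kept uniquely mapped reads, obtained fragment counts per gene from HTSeq and deposited them as raw counts. The methods name both RefSeq and Ensembl annotations. Processing notes of the submitters name CASAVA 1.8.2 and edgeR. The authors also deposited FPKM values, used here only to check the order of levels. Their fold changes, p-values and 16 columns of normalized values or ratios per mouse were not used.

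From the counts, genes were kept with filterByExpr, normalized by TMM and compared with the quasi-likelihood test of edgeR 4.0.16 (R 4.3.3), with no covariate. The Benjamini-Hochberg adjustment was made over all 16797 genes tested, and the procedure was tested on simulated data. Exact permutation tests used log2 CPM. Levels per length are TMM-normalized CPM per kilobase of protein-coding exons in GENCODE release M21 (GRCm38). Counts summed to between 160630226 and 211283591 per library, and no replicates agreed within sampling noise (lowest chi-square per degree of freedom 30.6), so each mouse was 1 replicate. Alternatives were DESeq2 1.42.0, limma-voom (limma 3.58.1), other scalings and filters, leaving out mice, and 1 surrogate variable (sva 3.50.0).

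The transporter genes and all lists were chosen with earlier results of these data known. Genes named are the transporters, the 2 lowest by p in each list plus any with an adjusted p under 0.05, the 2 most alike per transporter, Rbfox2, Xist and the Y-linked genes. Others are said to be named after their values were seen, as is the case for Gfap. Marker genes Hbb-bs, Hbb-bt and Hba-a1 had no row in the table used here, and Mip and Hba-a2 did not pass the filter. Of the genes the naming rule selects, 1 is left out of the text.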

Additional observations from a re-analysis of the deposited data

Results flagged for a closer look

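The CPM of Slc17a6 in the control M833, 45.5, stood apart from the other controls (69.4 to 72.8 CPM), with a gap that was 0.875 of the range of the group, above Dixon's critical value for 4 samples. The summed CPM of RGC markers in the same library, 891, stood apart likewise (1356 to 1405 CPM in the other controls, 0.905 of the range). In all, 26 groups of values were examined, 2 were marked and 1.3 are expected by chance at this threshold, where about 1 group in 20 passes. The shared position of M833 in both values was not tested for a cause.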

How the results depend on the processing

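The number of genes with an adjusted p under 0.05 was 11 and depended on the setting. It was 465 with DESeq2, 5 with 1 surrogate variable, 1 without M901 and M902, 1 without M833, M901 and M902 (an alternative chosen after seeing the data), and between 5 and 35 when 1 mouse was left out (35 without M833, 19 without M894, 6 without M898, and 5 without M896, M893, M901 or M909). No transporter gene passed under any alternative. The number of transporter genes with an unadjusted p under 0.05 was 2. It was 3 with DESeq2, 1 with upper-quartile scaling and with no count filter, and 0 without M901 and M902, with the surrogate variable, and without M833, M901 and M902. With 1 mouse left out it ranged from 0 (without M902) to 3 (without M909), with 1 without M894, M896, M898 or M893. Directions held in 17 of 17 alternatives for Slc1a1, Slc1a2 and Slc1a7. Slc17a6 turned to -0.071 without M833 (leave-one-out range -0.071 to 0.13) and to -0.096 without M833, M901 and M902. Under that last setting Slc17a8 turned to 0.060, Slc1a3 to 0.0038 and Pou4f3 to -0.11. Slc17a7 turned to -0.0028 with upper-quartile scaling, -0.035 with the surrogate variable and -0.015 without M901 and M902, and ranged from -0.020 to 0.037 with 1 mouse left out. Cryaa turned to -0.64 without M893 (-0.64 to 1.79 with 1 mouse left out). The cause of these turns was not tested beyond the libraries left out. Slc1a3 had 50.7 by the authors' FPKM against 48.4 per kilobase here. Without M901 and M902 the estimate also moved by over 1.5 times for Slc17a6 (to 0.043), Pou4f3 (0.060), Nefh (-0.18), Ptf1a (0.51), Best2 (-1.09), Cryab (-0.11), Cryaa (1.27), Pecam1 (-0.16), Cdh5 (-0.23), Grm6 (0.12) and the genes whose value without them stands beside the result. Of 628 values for the 37 other genes named, 614 kept their direction and side of the threshold, 2 turned, 10 passed only under the alternative and 2 no longer passed (Calb1, adjusted p = 0.0501 without M901 and M902 and 0.0795 without M833 too). No paired analysis was possible because the labels give mouse identifiers and no replicate numbers shared between groups. Depth did not limit the transporter genes, whose lowest count was 2978 (Slc17a8 in M902), whereas 4 mice per group did limit the intervals.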
